A study of Sus scrofa with 14 samples.

Results

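Transcripts of complement components and complement regulators were followed through porcine knee cartilage, meniscus and cultured meniscus cells. The members were the rows of the count table named C1R, C1S, C2, C3, CFB, CFD, CFI, SERPING1 or CD55, the row with most reads being kept where a name occurred more than once. Of these 9 names, 7 were found, out of 25880 genes in the table, and all 7 passed the minimum of 10 reads summed over libraries that left 15707 genes for testing. The row of CFB carries no name in the table and was identified only by its Ensembl identifier (ENSSSCG00000024914) through a reference list of gene names, so it is described beside the members and is not counted among them. CD55 was not analysed here.

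The study compared 5 groups of bulk RNA sequencing libraries from skeletally mature female pigs aged 2 to 3 years. Full-thickness femoral articular cartilage (n = 3), the larger inner zone of the medial meniscus (inner tissue, n = 3) and its outer zone (outer tissue, n = 3) were taken as explants and kept for 3 days in medium with fetal bovine serum before RNA was prepared. Inner P3 cells (n = 3) and outer P3 cells (n = 2) were digested from the corresponding meniscus zone, grown as a monolayer in the same medium and collected at passage 3. No allele was modified and the groups did not differ by a test agent. The paper describes a first soak in medium with extra antibiotic and antimycotic for explants, and release with pronase and collagenase for cells. Tissue RNA was extracted with TRIzol after pulverizing and then column purified, whereas cells went straight to the column. The paper also says that passaged cells and tissue were not matched by donor. Passaging, the enzyme release, the antibiotic soak, the change of extraction and the change of donor therefore cannot be told apart. Inner and outer explants were taken from the same 3 menisci, 1 explant of each zone per meniscus, but the labels do not say which libraries share a meniscus or an animal. The p-values below treat libraries as independent and measure the spread between them only.

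Complement is a cascade of plasma and locally made proteins. In the classical route the proteases C1r and C1s cleave C4 and C2, in the lectin route the MASP proteases do so, and in the alternative route factor D cleaves factor B, and all 3 routes meet at C3. C1 inhibitor, encoded by SERPING1, blocks C1r, C1s and the MASP proteases, and factor I inactivates C3b and C4b. Liver makes most of the circulating proteins, but chondrocytes and fibroblasts also transcribe several of them.

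Levels are given as CPM, the reads of a gene relative to the total of its library after TMM scaling between libraries. Library totals ranged from 24440213 to 43304412 reads. The chondrocyte list (8 genes, summed) ran from 37979 to 98440 CPM in cartilage and from 6241 to 33767 in inner tissue. It ran from 3082 to 12662 in outer tissue and from 194 to 544 in P3 cells. The fibrous and contractile list (6 genes) ran from 831 to 894 CPM in cartilage and from 102 to 143 in inner tissue. It ran from 351 to 1987 in outer tissue and from 82170 to 117684 in P3 cells. The cartilage label thus matched its chondrocyte markers and the P3 cells were low in cartilage genes. On the fibrous list, however, cartilage lay above inner tissue. The macrophage and leukocyte list (8 genes) summed to 60.7 to 133 CPM in explants and 17.2 to 20.1 in P3 cells. Outer tissue replicate 2 stood apart from the other 2 outer explants in endothelial markers and in PTPRC. Its summed endothelial list (8 genes) was 10.9 CPM, against 629 and 242 in outer replicates 3 and 6, 3.44 to 4.83 in cartilage and inner tissue and 4.50 to 15.1 in P3 cells. PTPRC, the pan-leukocyte marker, had 3 reads in outer replicate 2, against 99 and 138 in replicates 3 and 6, and 0 reads in all 5 P3 libraries. The summed macrophage and leukocyte list was 107 CPM in outer replicate 2, against 99.8 and 103 in replicates 3 and 6. That sum mainly reflects CD14 and LYZ, with 16796 and 7505 reads over all libraries, against at most 2195 for any other listed gene. Of the 8 genes, 2 had 0 reads in outer replicate 2 and 0 had 0 reads in replicates 3 and 6.

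C1R and C1S lie tail to tail on chromosome 5 of Sscrofa11.1 (C1R at chr5:63644097-63655149 on the plus strand and C1S at chr5:63670309-63681466 on the minus strand), with 15159 bases between them. C2 (chr7:24020590-24034042) is followed on the same strand by CFB (chr7:24034077-24040523) after 34 bases. The 250 bases before the annotated start of C1R (chr5:63643847-63644096, plus strand), C1S (chr5:63681467-63681716, minus strand), C2 (chr7:24020340-24020589, plus strand) and SERPING1 (chr2:13338827-13339076, minus strand) are shown because C1R and C1S moved together, C2 moved the other way and SERPING1 encodes the inhibitor of the first pair. They are given 5′ to 3′ on the strand of the gene, from the Sscrofa11.1 genome with RefSeq gene starts, with motif matches in capitals.
C1R: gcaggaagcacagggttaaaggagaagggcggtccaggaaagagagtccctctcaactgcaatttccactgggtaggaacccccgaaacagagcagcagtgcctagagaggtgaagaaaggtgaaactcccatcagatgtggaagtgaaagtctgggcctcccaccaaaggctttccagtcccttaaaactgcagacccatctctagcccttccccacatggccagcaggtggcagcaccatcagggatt
C1S: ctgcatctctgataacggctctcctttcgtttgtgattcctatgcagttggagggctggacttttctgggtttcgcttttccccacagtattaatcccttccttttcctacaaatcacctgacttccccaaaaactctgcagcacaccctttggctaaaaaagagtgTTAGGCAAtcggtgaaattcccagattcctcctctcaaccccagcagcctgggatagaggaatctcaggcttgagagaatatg
C2: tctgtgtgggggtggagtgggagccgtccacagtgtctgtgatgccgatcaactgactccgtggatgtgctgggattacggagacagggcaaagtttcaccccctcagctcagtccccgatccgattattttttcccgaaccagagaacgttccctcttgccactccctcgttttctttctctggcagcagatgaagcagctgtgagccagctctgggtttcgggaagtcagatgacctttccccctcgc
SERPING1: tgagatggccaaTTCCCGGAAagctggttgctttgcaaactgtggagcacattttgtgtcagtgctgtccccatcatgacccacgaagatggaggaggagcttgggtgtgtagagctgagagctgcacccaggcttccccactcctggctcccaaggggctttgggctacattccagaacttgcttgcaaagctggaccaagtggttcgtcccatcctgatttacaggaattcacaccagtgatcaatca
Both strands of each window were searched for TTCNNNGAA (STAT), the interferon response element (GAAA, any 2 bases, GAAA), TTGCNNAA (C/EBP) and the NF-kB motif. The C1S window held 1 C/EBP match, 83 to 76 bases before the start, and the SERPING1 window held 1 STAT match, 238 to 230 bases before it. No match was found in the windows of C1R, C2 and C3, whereas CFI held 1 interferon response element match, CFD 1 C/EBP match and CFB 2 NF-kB matches. Of all 19547 windows of this length, 6.098% held the STAT motif, 2.993% the interferon response element, 8.211% the C/EBP motif and 13.99% the NF-kB motif, and a match describes letters only. The CFB window overlaps the end of C2, with only the 34 bases nearest CFB outside it, and CFD lies within the span of MED16 on the other strand. The strand setting of the read counting was not given in the sources used here, so reads of CFD and MED16 cannot be told apart.

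Across the 5 groups the members fell into a set with high levels and a set with low levels. Per kilobase of exon, mean levels in cartilage were 347 ± 93.7 CPM for C1S, 262 ± 54.0 for C1R and 172 ± 79.0 for SERPING1 (SD, n = 3), against 5.97 ± 1.32 for CFI, 2.85 ± 0.395 for CFD, 0.988 ± 0.417 for C3 and 0.186 ± 0.0617 for C2. CFB reached 8.05 ± 3.96 CPM per kilobase there. In outer P3 cells (n = 2) C2 was at 22.1 ± 2.79 CPM per kilobase and C3 at 0.102 ± 0.0426, so that the order of these members by level was not the same in cells and cartilage.

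**Figure D1:**
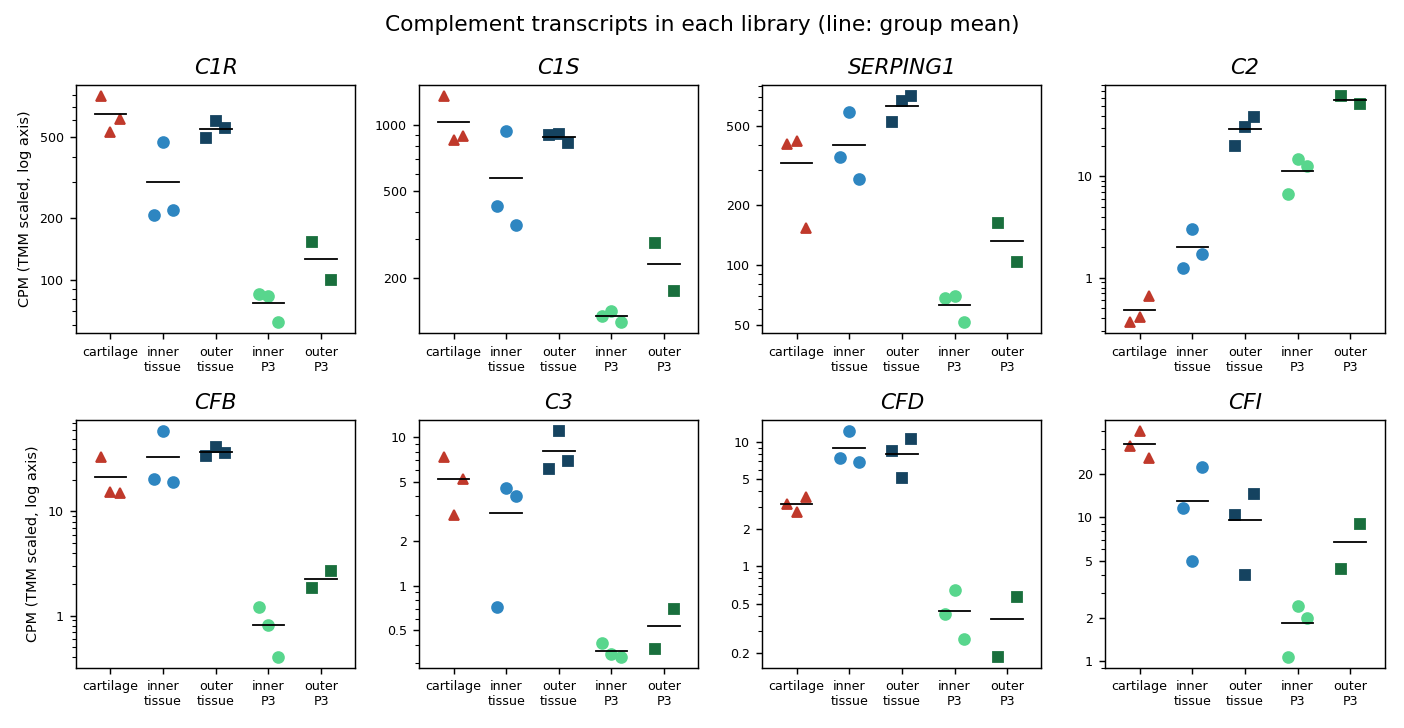
Level of each of the 7 members and of CFB in the 14 libraries, as TMM-scaled CPM on log axes whose ranges differ between panels. Each point is 1 library, lines are group means, and groups are cartilage, inner and outer meniscus tissue and inner and outer P3 cells (n = 3, 3, 3, 3 and 2). C2 is the panel in which cells lie above cartilage, from 6.71 to 62.0 CPM against 0.368 to 0.660.

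C2, the protease that joins C4b in the classical C3 convertase, separated all 5 groups. Cartilage held 0.368, 0.406 and 0.660 CPM (9, 9 and 14 reads), and inner tissue 1.24, 3.05 and 1.70 CPM (38, 87 and 56 reads). Outer tissue held 19.9, 30.7 and 38.2 CPM (492, 1080 and 1585 reads). Every outer explant was above every inner explant, and every inner explant above every cartilage library. Inner P3 cells held 6.71, 14.8 and 12.7 CPM, and outer P3 cells 62.0 and 51.9 CPM. From lowest to highest the order was cartilage, inner tissue, inner P3 cells, outer tissue and outer P3 cells, and no library crossed into a neighbouring group. The share of all tested genes that separate all 5 groups was not computed. For pairs of groups the share without overlap ran from 16.9% between the zones to 70.3% for outer P3 cells against cartilage. Fewer cells making a transcript and less transcript per cell cannot be told apart in bulk RNA, here or in the results that follow.

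Between the meniscus zones, C2 was 14.9-fold higher in outer than in inner tissue (log2 fold change 3.90 ± 0.39 SE, adjusted p = 0.00318, edgeR quasi-likelihood test). Called here means an adjusted p under 0.01 and a change over 2-fold. C2 was 1 of 5 genes called among the 15707 tested, or 0.0318%, and had the smallest p of all, while 3 of 7 members (C1R, C2 and C3) did not overlap between the zones, beside 16.9% of tested genes. The 5 were all higher in outer tissue (0.0318% higher and 0.00% lower), the other 4 being COL1A1, CRABP1, SLC15A3 and PCSK1N. That count of 5 was unstable, at 353 genes with DESeq2, 89 of 15480 with the replicate number as a block, 0 in the test against the 2-fold threshold, 363 without outer replicate 2 and 0 to 7 without any other library. Of the endothelial list, 8 of 8 genes had positive values for outer over inner tissue, 0 were called and 8 had an unadjusted p under 0.05, as did 3181 of all 15707 genes. Outer replicate 2, with 10.9 CPM of endothelial markers and 3 reads of PTPRC, held 19.9 CPM of C2. That was the lowest level of the outer explants, replicates 3 and 6 holding 30.7 and 38.2 CPM. Its macrophage and leukocyte list, a sum that mainly reflects CD14 and LYZ, was 107 CPM, against 99.8 and 103 in replicates 3 and 6. Gene by gene, 7 of the 8 on that list were positive for outer over inner tissue. Of these 8, 0 were called and 6 had an unadjusted p under 0.05. Without that library the C2 difference was 4.12 on the log2 scale (adjusted p = 1.2e-04), among the 363 genes then called, and with the block it was 3.62 (adjusted p = 0.00187). The size of the difference ranged from 3.62 to 4.33 over 21 alternative settings (adjusted p from 2.0e-20 to 0.126). The call was lost in the test against the 2-fold threshold (adjusted p = 0.0118), with the compared libraries alone (0.126), and without cartilage replicate 2 (0.0126), inner replicate 2 (0.0338) or 5 (0.0239), outer replicate 3 (0.0168) or 6 (0.0138), or outer P3 replicate 147 (0.01005).

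Against cartilage, C2 rose 62.1-fold in outer tissue (log2 fold change 5.96 ± 0.46, adjusted p = 7.4e-06) and 4.16-fold in inner tissue (2.06 ± 0.46, adjusted p = 0.00547). Cartilage counts were low, and the inner tissue call was lost in the test against the 2-fold threshold (adjusted p = 0.108), with the compared libraries alone (0.0245), and without cartilage replicate 1 (0.0241), 2 (0.0244) or 3 (0.0127) or inner replicate 3 (0.0227) or 5 (0.0102). With cells, C2 rose 5.75-fold from inner tissue to inner P3 cells (2.52 ± 0.37, adjusted p = 1.1e-04). From outer tissue to outer P3 cells the log2 fold change was 0.94 ± 0.37 with an adjusted p of 0.0576. The 2 passaging differences were compared in an interaction term, which gave -1.58 ± 0.52 for outer minus inner with an adjusted p of 0.639. Both P3 groups exceeded cartilage, by 23.9-fold for inner P3 cells (adjusted p = 3.2e-06) and 119-fold for outer P3 cells (7.3e-07).

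Among cells, the 2 outer P3 libraries lay above the 3 inner P3 libraries for C2, at 4.98-fold (log2 fold change 2.32 ± 0.37). C2 ranked first of 15707 genes by p (3.4e-05), yet its adjusted p was 0.246. By edgeR 0 genes were called in this comparison (0.00%) and 505 had an unadjusted p under 0.05, 5 of them members (C1R, C1S, C2, CFI and SERPING1). DESeq2 called 10 genes, and C2 was the 1 member among them (2.33, adjusted p = 9.9e-05). Libraries of the P3 groups did not overlap for these 5 members, against 22.9% of all tested genes.

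CFB, the factor B gene next to C2, had a different profile. It held 33.2, 15.5 and 14.9 CPM in cartilage, 20.7, 59.2 and 19.0 in inner tissue and 34.4, 41.7 and 36.4 in outer tissue, against 1.20, 0.807 and 0.405 in inner P3 cells and 1.86 and 2.67 in outer P3 cells. Every tissue library lay above every cell library, and inner replicate 3 was the highest of all. CFB fell 41.5-fold in inner P3 cells against inner tissue (log2 fold change -5.38 ± 0.56, adjusted p = 8.3e-06) and 16.5-fold in outer P3 cells against outer tissue (-4.04 ± 0.60, adjusted p = 2.6e-04), while outer and inner tissue differed by 0.19 ± 0.44 (adjusted p = 0.854). The number of C2 reads per CFB read was 0.0111 to 0.0443 in cartilage, 0.0514 to 0.0896 in inner tissue and 0.579 to 1.05 in outer tissue. It was 5.58 to 31.4 in inner P3 cells and 19.5 to 33.4 in outer P3 cells, so the ratio spanned 3014-fold over the 14 libraries. The adjacent C1R and C1S kept a far narrower ratio, 1.46 to 2.06 C1S reads per C1R read, a range of 1.41-fold.

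**Figure D2:**
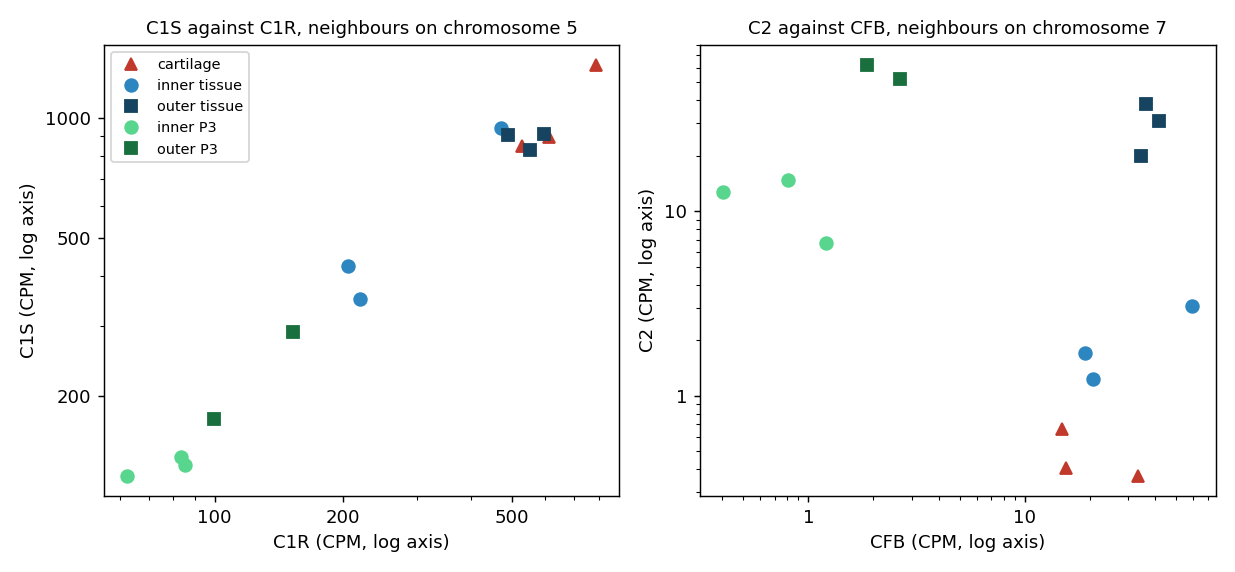
Levels of 2 pairs of neighbouring genes in the 14 libraries, in TMM-scaled CPM on log axes: C1S against C1R at left and C2 against CFB at right. Each point is 1 library, coloured by group. C1S and C1R lie along 1 line (1.46 to 2.06 C1S reads per C1R read), whereas C2 and CFB fall in separate areas by group (0.0111 to 33.4 C2 reads per CFB read).

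The proteases of the C1 complex, C1R and C1S, were high in every explant and fell in P3 cells. C1R held 789, 529 and 613 CPM in cartilage, 206, 471 and 219 in inner tissue and 491, 595 and 552 in outer tissue. It held 85.0, 83.5 and 62.3 CPM in inner P3 cells and 153 and 99.8 in outer P3 cells. All 5 cell libraries were below all 9 explants, and inner replicate 3 was the 1 inner explant near the outer ones. C1S ran from 851 to 1354 CPM in cartilage, 349.9 to 942 in inner tissue, 831 to 912 in outer tissue, 126 to 141 in inner P3 cells and 175 to 290.4 in outer P3 cells.

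On passaging, C1R fell 3.89-fold in the inner zone (log2 fold change -1.96 ± 0.30, adjusted p = 1.7e-04) and 4.32-fold in the outer zone (-2.11 ± 0.36, adjusted p = 6.0e-04). C1S fell 4.28-fold (-2.10 ± 0.34, adjusted p = 2.2e-04) and 3.79-fold (-1.92 ± 0.39, adjusted p = 0.00195). In the outer zone both calls were lost without outer P3 replicate 148 (adjusted p = 0.0136 for C1R and 0.0343 for C1S), and in the test against the 2-fold threshold (0.0115 and 0.0383). Inner tissue held 2.15-fold less C1R than cartilage, which did not pass the test (-1.11 ± 0.30, adjusted p = 0.0140), and the corresponding values for C1S were -0.85 ± 0.33 and 0.0654. Without inner replicate 3, the highest inner library for both genes, the differences were -1.60 for C1R (adjusted p = 8.4e-04) and -1.41 for C1S (0.00242), and both were called. Outer tissue and cartilage differed by -0.24 ± 0.29 for C1R and -0.23 ± 0.32 for C1S (adjusted p = 0.549 and 0.605).

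SERPING1, the C1 inhibitor gene, stood at the level of C1R in most libraries. It held 405, 420.3 and 154 CPM in cartilage, 349 and 586 and 269.8 in inner tissue, and 526, 666 and 707 in outer tissue. P3 cells held 68.3, 69.5 and 51.9 CPM in the inner group and 163 and 103 in the outer group, below every explant library except that cartilage replicate 3 (154) lay under outer P3 replicate 147 (163). SERPING1 fell 6.35-fold in inner P3 cells (log2 fold change -2.67 ± 0.38, adjusted p = 9.2e-05) and 4.76-fold in outer P3 cells (-2.25 ± 0.44, adjusted p = 0.00151) against their zones. The outer call was lost without outer P3 replicate 148 (adjusted p = 0.0277) and in the test against the 2-fold threshold (0.0195). Outer tissue exceeded cartilage in every library, with a log2 difference of 0.96 ± 0.36 (adjusted p = 0.0506). The number of SERPING1 reads per C1R read was 0.250 to 0.795 in cartilage, 1.23 to 1.69 in inner tissue, 1.07 to 1.28 in outer tissue, 0.803 to 0.833 in inner P3 cells and 1.03 to 1.06 in outer P3 cells, so that cartilage was the group with the lowest ratios and with the widest spread.

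C3, the component on which all routes converge, and CFD, the factor D gene, were lowest in P3 cells. C3 held 7.36, 2.98 and 5.24 CPM in cartilage, 0.715, 4.55 and 4.04 in inner tissue, 6.07, 11.0 and 6.95 in outer tissue, 0.412, 0.346 and 0.334 in inner P3 cells and 0.377 and 0.693 in outer P3 cells. Inner replicate 2 (0.715 CPM) was close to the cells, and the 3 outer explants were above the 3 inner ones. C3 fell 8.48-fold in inner P3 cells (log2 fold change -3.08 ± 0.61, adjusted p = 9.6e-04) and 14.8-fold in outer P3 cells (-3.88 ± 0.72, adjusted p = 0.00106). The second call was lost without outer P3 replicate 147 (adjusted p = 0.0192) or 148 (0.0101), each of which leaves 1 library in the group. P3 cells held 42 and 46 C3 reads in all, for 3 inner and 2 outer libraries. For outer against inner tissue the log2 difference in C3 was 1.37 ± 0.54 (adjusted p = 0.186).

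CFD held 3.15, 2.75 and 3.63 CPM in cartilage, 7.45, 12.3 and 6.89 in inner tissue, 8.50, 5.14 and 10.5 in outer tissue, 0.412, 0.646 and 0.262 in inner P3 cells and 0.189 and 0.563 in outer P3 cells. All 6 meniscus explants were above the 3 cartilage libraries, and all cell libraries were below them. CFD fell 19.9-fold in inner P3 cells (log2 fold change -4.32 ± 0.46, adjusted p = 1.0e-05) and 20.8-fold in outer P3 cells (-4.38 ± 0.55, adjusted p = 8.4e-05). The differences from cartilage, 1.48 ± 0.40 for inner and 1.34 ± 0.40 for outer tissue, did not pass the test (adjusted p = 0.0144 and 0.0173). DESeq2 called both (0.00150 and 0.00367), and the inner difference was also called by edgeR without outer P3 replicate 147 (0.00994) or 148 (0.00997).

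CFI, the gene of the protease that inactivates C3b and C4b, was highest in cartilage. Cartilage held 31.4, 39.9 and 25.8 CPM, inner tissue 11.6, 4.97 and 22.4, and outer tissue 10.4, 3.98 and 14.5. Inner P3 cells held 1.08, 2.42 and 2.00 CPM and outer P3 cells 4.39 and 8.99. Every cartilage library lay above every other library, and replicate 3 was the lowest explant in both zones. CFI fell 7.03-fold in inner P3 cells against inner tissue (log2 fold change -2.81 ± 0.58, adjusted p = 0.00127, and 0.0109 in the test against the 2-fold threshold), while outer P3 cells overlapped outer tissue (-0.52 ± 0.60, adjusted p = 0.517). The interaction term for CFI was 2.29 ± 0.80 with an adjusted p of 0.639, so the 2 zones were not shown to differ. By edgeR 0 of 15707 genes were called for the interaction (0.00%), with 1173 at an unadjusted p under 0.05, C2 and CFI being the 2 members among them, and 17 called by DESeq2. Cartilage exceeded outer tissue by a log2 difference that did not pass (-1.75 ± 0.54 for outer minus cartilage, adjusted p = 0.0210), and it passed with DESeq2 (0.00282), with the replicate number as a block (-2.32, 0.00451) and without inner replicate 3 (0.00935). For inner tissue against cartilage the difference was -1.31 ± 0.53 (adjusted p = 0.0803), and it passed with the block (-2.07, 0.00737).

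**Figure D3:**
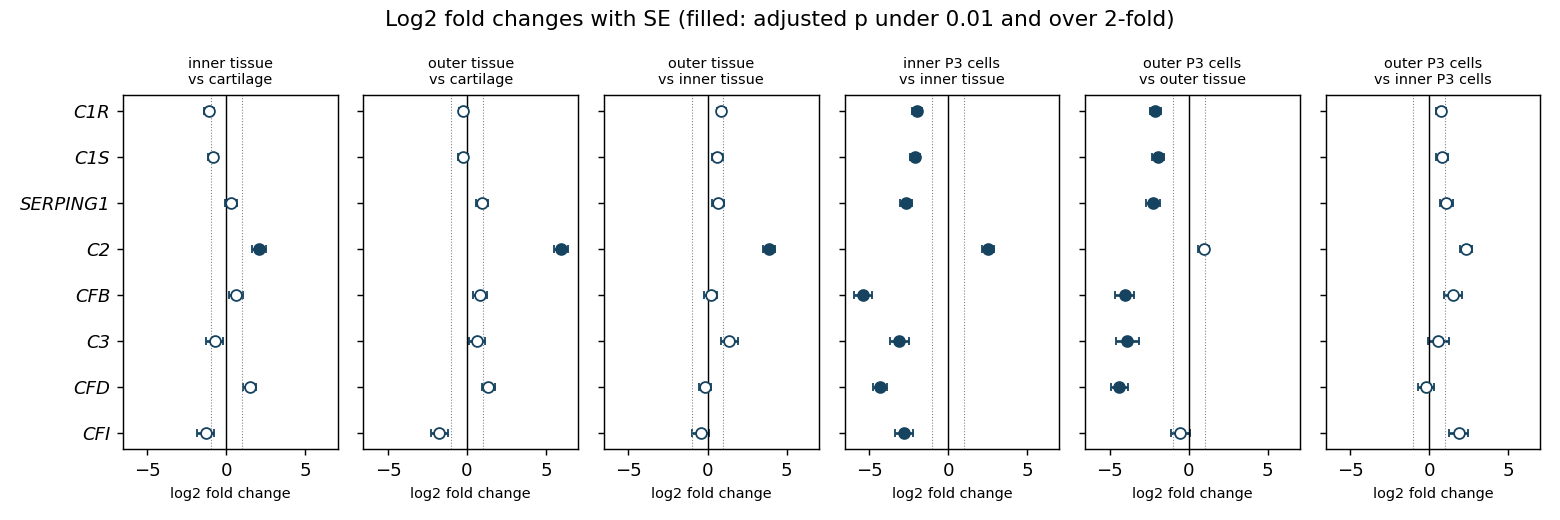
Log2 fold change of each member and of CFB in 6 comparisons, with the first-named group over the second. Points are edgeR estimates, bars are SE, filled points passed an adjusted p under 0.01 with a change over 2-fold, and dotted lines mark 2-fold. C2 is positive in every panel, from 0.94 to 5.96, while the other 6 members are negative in both comparisons of cells with tissue.

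In the count over the 7 members, P3 cells of both zones were mostly lower than explants. In inner P3 cells against inner tissue all 7 were called, 6 lower and C2 higher, where 25.7% of all tested genes were called (13.6% higher and 12.1% lower), and the median log2 fold change of the members was -2.67 beside 0.015 over all tested genes. In outer P3 cells against outer tissue 5 were called, all lower, beside 16.7% of tested genes (8.36% higher and 8.30% lower), with a median of -2.11 beside -0.012. This count was not stable to leaving out outer P3 replicate 148, which leaves 1 library in that group and also lowered the calls over all tested genes. There the log2 fold changes of C1R, C1S, C3 and SERPING1 were -1.84, -1.60, -4.40 and -1.96. Library ranges did not overlap for 7 members in the inner comparison and 6 in the outer one, but 62.6% and 61.3% of all tested genes did not overlap either. The chondrocyte list moved with these results, with 6 of 8 genes called lower in the inner and 5 of 8 in the outer comparison, and the fibrous and contractile list moved the other way, with 6 of 6 and 5 of 6 called higher. Their part in the member results was not tested.

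Against cartilage, 1 of 7 members was called in inner tissue, C2, beside 9.05% of tested genes (4.45% higher and 4.60% lower), and 1 of 7 in outer tissue, also C2, beside 15.1% (8.56% and 6.50%). Library ranges did not overlap for 4 members in each, beside 41.9% and 46.2% of tested genes. All 7 were called in inner P3 cells beside 32.5% (17.0% higher and 15.4% lower), and 6 in outer P3 cells beside 31.2% (17.0% and 14.3%), with no overlap for 7 and 6 members beside 66.6% and 70.3%, SERPING1 (log2 fold change -1.30 ± 0.42, adjusted p = 0.0186) being the exception. Changes from cartilage to inner P3 cells ran from -4.13 for CFI to -2.37 for SERPING1 apart from C2, and to outer P3 cells from -3.26 for C3 to -2.15 for C1S among the 5 called lower. The outer count was not stable to leaving out outer P3 replicate 148, which leaves 1 library in that group and also lowered the calls over all tested genes. These comparisons share the cartilage libraries. The CFI call in outer P3 cells (adjusted p = 0.00901) was lost without any 1 of 9 libraries, namely cartilage replicates 1, 2 and 3 (0.0168, 0.0244 and 0.0134), inner tissue replicate 2 (0.0120), outer tissue replicate 2 (0.0105), inner P3 replicates 148 and 149 (0.0115 and 0.0124) and outer P3 replicates 147 and 148 (0.0892 and 0.0211). The C3 call was lost without outer P3 replicate 147 (0.0247) or 148 (0.0102) and the C1S call without 148 (0.0116), whereas SERPING1 was called without cartilage replicate 3 (0.00203).

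Over the 14 libraries, C2 correlated negatively with each of the other 6 members (Pearson r of log2(CPM + 0.5) from -0.57 with CFI to -0.16 with SERPING1), and the other 6 correlated positively with each other (0.52 to 0.99). These values describe 14 libraries that fall into 5 groups and share the difference between tissue and cells. Of 9298 genes with at least 10 CPM in their highest group, the 3 closest to C2 by r were MYLK (0.92), CCL2 (0.92) and LIPG (0.91). C1R and C1S were closest to each other (0.99), followed for both by CNDP2 (0.98 for each) and HDHD3 (0.97 for each). The closest were AP2M1 for C3 (0.93), CTNNBL1 for CFD (0.98), EGLN3 for CFI (0.92) and DPY19L1 for SERPING1 (0.97). With Spearman's rho in place of Pearson's r, 1 of the 3 genes was shared for C2, MYLK, and 0 of 3 for each other member.

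Of 45 other complement genes listed, 37 were found and 27 were tested. The lectin-route protease gene MASP1 was called higher in cells of both zones than in the tissue. It held 0.695, 1.13 and 0.660 CPM in cartilage, 0.585, 0.841 and 0.668 in inner tissue, 1.70, 30.2 and 27.1 in outer tissue, 302, 197 and 149 in inner P3 cells and 414 and 242 in outer P3 cells. All cell libraries lay above all explants, and outer replicate 2 was near the inner zone. MASP1 rose by 8.27 ± 0.90 on the log2 scale from inner tissue to inner P3 cells (adjusted p = 1.2e-05) and by 4.05 ± 0.73 from outer tissue to outer P3 cells (adjusted p = 9.5e-04). Its paralogue MASP2 went the other way along the same groups, from 10.5 to 25.2 CPM in cartilage to 0.501 to 1.29 in P3 cells. It fell by 2.77 ± 0.39 in inner P3 cells against inner tissue (adjusted p = 7.7e-05). In the outer zone it was not called, at 1.30 to 2.16 CPM in tissue and 0.650 and 1.29 in P3 cells.

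C4A, whose product is cleaved by C1s, was 86.7 to 168 CPM in cartilage, 48.3 to 83.0 in inner tissue, 18.3 to 47.0 in outer tissue and 0.697 to 3.26 in P3 cells, and fell by 5.77 ± 0.43 on the log2 scale in inner P3 cells and by 3.48 ± 0.45 in outer P3 cells (adjusted p = 1.0e-06 and 1.1e-04). C5 and C7, of the terminal pathway, and CLU, a soluble inhibitor of it, were also called lower in both. CLU was the most abundant, at 12642 to 26315 CPM in explants and 228 to 714 in P3 cells. In all, 8 of the 27 genes were called in inner P3 cells against inner tissue (C1QBP and MASP1 higher, C4A, C5, C7, CLU, CPN1 and MASP2 lower) and 5 in outer P3 cells against outer tissue (MASP1 higher, C4A, C5, C7 and CLU lower), where 25.7% and 16.7% of all tested genes were called. The second count was 9 without outer tissue replicate 2, where 2278 of all tested genes were called.

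Against cartilage, 3 of the 27 were called in inner tissue, all lower (C6, C7 and MASP2), and 7 in outer tissue, with C5AR1 and MASP1 higher and C4A, C5, CPN1, MASP2 and VTN lower, beside 9.05% and 15.1% of all tested genes. The first count was 1 without inner tissue replicate 3 and the second 12 without outer tissue replicate 2, where 1100 and 2723 of all tested genes were called. Between the zones 20 of 27 were positive for outer over inner tissue, 0 were called by edgeR, 14 had an unadjusted p under 0.05 and DESeq2 called 2, and without outer replicate 2 edgeR called 3. Over all 15707 genes the corresponding counts were 5, 3181, 353 and 363. Among P3 cells 0 were called by edgeR and DESeq2, and 1 had an unadjusted p under 0.05. C1QA, C1QB and C1QC, the chains of C1q, which macrophages make, were high in the same 2 outer explants as PTPRC. C1QC had 348 and 654 reads in outer replicates 3 and 6, 6 in outer replicate 2, 41 in inner replicate 5, 10 in cartilage replicate 3, 1 in outer P3 replicate 148 and 0 in every other library. The anaphylatoxin receptor gene C5AR1 had 166 and 229 reads in the same 2 outer explants, 4 in outer replicate 2, 0 in all cartilage and 2 to 26 elsewhere. Outer replicates 2, 3 and 6 held 19.9, 30.7 and 38.2 CPM of C2 and 491, 595 and 552 of C1R. They held 903, 912 and 831 CPM of C1S and 526, 666 and 707 of SERPING1. Which cells made these transcripts was not tested.

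**Figure D4:**
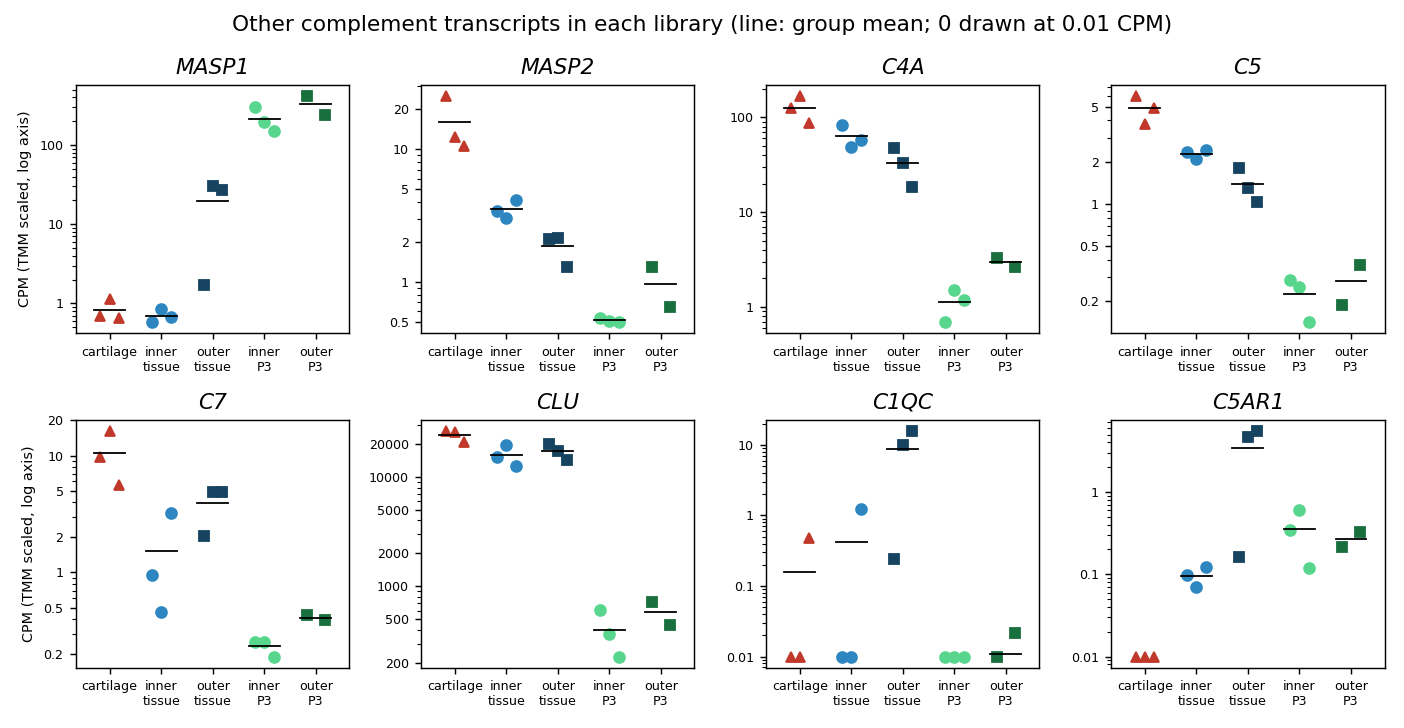
Levels of 8 other complement genes in the 14 libraries, as TMM-scaled CPM on log axes whose ranges differ between panels. Each point is 1 library, lines are group means, and a value of 0 is drawn at 0.01 CPM. MASP1 is highest in the 5 P3 libraries (149 to 414 CPM) while MASP2, C4A, C5, C7 and CLU are lower there than in cartilage, and C1QC and C5AR1 are high in 2 outer explants only.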

How the data were processed

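RNA from 14 porcine samples was sequenced in bulk from KAPA stranded mRNA libraries. The authors deposited raw counts of reads per gene, and per the paper's methods and the labels they trimmed reads (Trim Galore, cutadapt), mapped them with STAR to Sscrofa11.1, kept reads of 1 location and counted them with HTSeq. Versions were not given in the sources used here. The authors' normalized tables hold the same libraries and were not used. All 14 count columns matched a sample label.

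Counts of 15707 genes with at least 10 reads over all libraries were fitted in 1 edgeR model (edgeR 4.0.16, R 4.3.3, TMM scaling, a mean per group, quasi-likelihood F test), with Benjamini-Hochberg adjustment over these genes. SEs were derived as the absolute log2 fold change over √F. Calls required both an adjusted p below 0.01 and more than a 2-fold change, the study's thresholds. DESeq2 (1.42.0), RLE scaling, no filter, 10 reads in 2 libraries, the compared libraries alone, a test against 2-fold, leaving out each library and a replicate block were the alternatives. The code was tested on simulated data. Members are the named genes, with listed complement, cytokine and cell marker genes and, for each member, the 3 genes of highest Pearson r. The members and lists were chosen with earlier results of these data known. Reads were counted without molecular identifiers, so repeated copies of 1 molecule cannot be told apart. ITGAX is named ITGAM in the reference list and its symbol is uncertain.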

Additional observations from a re-analysis of the deposited data

How the results depend on the processing

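Direction and call were the same as reported in 397 of 416 values under the settings other than leaving out a library, with 10 weaker, 8 stronger and 1 reversed. With 1 library left out they were the same in 851 of 896, with 28 weaker, 6 stronger and 11 reversed. Both counts include CFB and values that stayed uncalled. The 896 also include fits that left out a library of neither compared group, so these shares do not measure how stable the calls were. Against the 2-fold threshold, 0 members were called in inner tissue against cartilage, 0 between the zones and 2 in outer P3 cells against outer tissue, and 0, 4 and 3 other complement genes in inner tissue against cartilage, outer tissue against cartilage and outer P3 cells against outer tissue. Over all 15707 genes this test called 268 in inner and 571 in outer tissue against cartilage, 0 between the zones and 945 in outer P3 cells against outer tissue. DESeq2 called 3 members in each zone against cartilage and 1 between the P3 groups, and 7, 2 and 8 other complement genes in inner tissue against cartilage, between the zones and in outer P3 cells against outer tissue, beside 1913 and 2896 of all genes in inner and outer tissue against cartilage, 353 between the zones, 10 between the P3 groups and 3135 in outer P3 cells against outer tissue. With the compared libraries alone, 0 members were called in inner tissue against cartilage and 0 between the zones. Other complement genes called were 1 in inner tissue against cartilage and 3 in outer P3 cells against outer tissue. Calls over all tested genes were not counted for this setting. A loss particular to complement genes therefore cannot be told apart from a general loss of calls with fewer libraries. The cause of these differences was not tested.

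The labels give replicate numbers 2 and 3 in tissues and 147 and 148 in cells of both zones but do not say whether a number marks a meniscus. Deviations of same-numbered libraries correlated at 0.44 and 0.25 in tissue, 0.24 and 0.28 in cells, and -0.19 to -0.022 between cartilage and meniscus. Libraries of different numbers were not correlated, so these values cannot show whether a number marks a meniscus. The 2 cell values are not independent, because deviations from the mean of 2 outer P3 libraries mirror each other. With a replicate block, 89 of 15480 genes were called between the zones, C2 among them (3.62, adjusted p = 0.00187), and 14 between the P3 groups, and 389 and 600 of 14972 in inner and outer tissue against cartilage. With the block 2 members were called in outer tissue against cartilage, C2 and CFI (-2.32, adjusted p = 0.00451), and 1 in inner tissue, where CFI was called (-2.07, 0.00737) and C2 no longer was (1.95, 0.0168), and other complement genes called were 1 between the zones, 0 in inner and 2 in outer tissue against cartilage, and C1S in outer tissue against cartilage reversed to 0.067. A library whose number occurs in 1 group adds nothing to the blocked comparison, which so rests on fewer libraries. Tissue and cells share no number.

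With 1 library left out, members called ranged from 0 to 2 in inner and 1 to 2 in outer tissue against cartilage, 0 to 1 between the zones, 1 to 5 in outer P3 cells against outer tissue and 3 to 6 against cartilage. Other complement genes called ranged from 1 to 4, 7 to 12, 0 to 3 and 4 to 9 in the first 4 of these. Calls over all tested genes ranged from 913 to 1590, 1600 to 2723 and 0 to 363 in the first 3. With both outer P3 libraries kept they were 2278 to 2727 in outer P3 cells against outer tissue and 4358 to 5096 against cartilage. The low ends for outer P3 cells came from fits that left 1 outer P3 library. Uncalled values that changed sign were SERPING1 (-0.076 to 0.53) and CFB (-0.099 to 1.12) in inner tissue against cartilage, C1S in outer tissue against cartilage (-0.35 to 0.016), CFD (-0.38 to 0.17), CFI (-0.87 to 0.21) and CFB (-0.091 to 0.92) between the zones, and CFD between the P3 groups (-1.21 to 0.35). RLE scaling moved no median over all tested genes by more than 0.1. C2 in cartilage rested on 9 to 14 reads a library, and C3 and CFD in P3 cells on 33 to 52 reads a group, which limits their precision, as do 2 libraries of outer P3 cells.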

Other observations

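Genes of cytokine signalling (21 listed, 20 found, 19 tested) were listed because such signals act on complement genes in other tissues. LIF, a cytokine of the interleukin-6 family, was 0.876 to 1.20 CPM in inner tissue, 1.11 to 2.44 in outer tissue, 9.88 to 21.2 in inner P3 cells and 11.4 to 21.8 in outer P3 cells, and rose by 3.69 ± 0.43 on the log2 scale in the inner zone and 3.39 ± 0.44 in the outer zone on passaging (adjusted p = 1.9e-05 and 1.0e-04). The receptor gene OSMR and the NF-kB inhibitor gene NFKBIA were called lower in P3 cells of both zones, and IL6R in inner P3 cells. OSMR was 72.0 to 216 CPM in meniscus explants and 26.9 to 46.1 in P3 cells, and NFKBIA 57.6 to 90.2 and 12.1 to 22.5. CEBPD was called higher than cartilage in both meniscus zones and both P3 groups, with 128 to 201 CPM in cartilage and 258 to 537 elsewhere. In the 2 comparisons of cells with tissue 4 and 3 of the 19 genes were called, beside 25.7% and 16.7% of all tested genes, and 0 were called between the zones in tissue or in cells by edgeR, with 2 and 0 at an unadjusted p under 0.05, beside 3181 and 505 of all 15707 genes.

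Of the remaining marker lists, the 4 proliferation genes found summed to 18.4 to 27.7 CPM in cartilage, 42.5 to 147 in meniscus explants and 76.7 to 213 in P3 cells. The 4 pericyte and smooth muscle genes summed to 286.9 to 1405 CPM in explants, cartilage included at 858 to 1025, and 71.4 to 187 in P3 cells. These genes did not move together. Against the tissue of each zone, CSPG4 and RGS5 were called lower and DES higher in P3 cells. The 3 synovial and fat genes found summed to 2.63 CPM at most in any library.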
